A study of Homo sapiens with 8 samples.

Results

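The genes described here encode proteins of the centromere and of the kinetochore, the protein layer that is built on the centromere and holds each chromosome to the microtubules of the mitotic spindle. They were taken from a list of 37 gene symbols that was drawn up by the function of the proteins, with earlier results of these data known. All 37 were found among the 27946 genes of the deposited table, with 1 transcript kept for each gene. RNA was measured in EA.hy926, an immortal human hybrid line whose parents were umbilical vein endothelium and the lung carcinoma line A549. A total of 8 libraries of RNA depleted of ribosomal RNA were sequenced, 2 from EA.hy926 control cells, 3 from knock-out clones without the enhancer E2 (ΔE2) and 3 from knock-out clones without the enhancer SE12313-b (ΔSE12313-b). Both enhancers belong to the same endothelial super-enhancer, both were removed with CRISPR/Cas9, and all cells were grown in the same medium. The study deleted SE12313-b as an enhancer that had been inactive in its reporter assays. Each deletion line was grown from 1 cell. The labels write Clones for all 8 libraries, while the study's methods describe cloning for the deletions and call the control a cell line. It is not settled whether the control cells were cloned as well. For its proliferation assay the study describes control cells that had received guide RNAs and were grown beside the clones. Whether the control RNA came from such cells is not stated. Deletion, cloning and CRISPR/Cas9 treatment thus cannot be told apart.

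The kinetochore is assembled in layers. CENP-A, a histone H3 variant, marks the centromere, and the constitutive centromere-associated network (CCAN) binds to it through the cell cycle. In mitosis the MIS12, KNL1 and NDC80 complexes are added, of which NDC80 grips the microtubule. The SKA complex strengthens this grip, the RZZ complex with Spindly brings in dynein and the checkpoint proteins Mad1 and Mad2, CENP-E is a kinesin motor, and the chromosomal passenger complex releases wrong attachments. The mRNAs of many of these proteins are known to be low in resting cells and to rise towards mitosis in dividing cells, when the promoters of such genes are released from the repressor complex DREAM and activated by B-MYB and FOXM1.

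Promoters of genes of this kind often hold a cell cycle homology region (CHR) close to the start of transcription, with CCAAT boxes upstream. RefSeq promoter windows, from 250 bases before to 50 after the start (GRCh38.p14), were at hand for 31 of the 37 genes. CENPH, CENPL, CENPM, KNL1, KNTC1 and BIRC5 had none. The stretches of 3 promoters are shown because each holds the CHR together with CCAAT boxes, in a pair of genes that rose strongly (CENPA and ZWINT) and in one that passed the test but not the 2-fold limit (CENPC). They run 5′ to 3′ on the gene's own strand from position -140 towards the start, to position -13 in CENPA, -1 in ZWINT and -6 in CENPC, counted back from -1 at the last base before the start. Capitals mark the CCAAT box, which on the other strand reads ATTGG. They also mark the CHR, here TTTGAA in CENPA, which on the other strand reads TTCAAA. Coordinates are of GRCh37, in which each stretch matched 1 place.
CENPA, chr2:27008784-27008911, plus strand: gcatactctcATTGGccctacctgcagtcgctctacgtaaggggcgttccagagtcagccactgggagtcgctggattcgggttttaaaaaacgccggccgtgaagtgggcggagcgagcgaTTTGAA
ZWINT, chr10:58121035-58121174, minus strand: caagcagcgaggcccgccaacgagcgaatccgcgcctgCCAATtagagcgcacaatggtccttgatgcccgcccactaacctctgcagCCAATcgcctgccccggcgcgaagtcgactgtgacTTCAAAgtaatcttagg
CENPC, chr4:68411227-68411361, minus strand: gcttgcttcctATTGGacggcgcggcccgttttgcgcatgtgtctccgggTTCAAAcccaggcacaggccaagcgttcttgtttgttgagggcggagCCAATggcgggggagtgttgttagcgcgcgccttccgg
The CHR begins at position -18 in CENPA, -17 in ZWINT and -90 in CENPC, where it lies between the CCAAT boxes.

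Searched as TTTGAA or TTCGAA on both strands, the CHR was in the window of 17 of the 31 genes (54.8%), against 15.3% of the 9752 tested genes with a window and 19.5% of all 27305 symbols of the promoter table. CCAAT on both strands was held by 21 of the 31 (67.7%), against 43.5% of tested genes and 39.7% of all, and both motifs stood together in 12 (38.7%), against 8.5% and 9.02%. An E2F motif, searched as TTTGGCGC, TTTCCCGC or TTTGGCGG on both strands with no overlap with the others required or barred, was found for CENPA, NDC80, MIS12 and ZWILCH, 4 of the 31 (12.9%), against 5.94% of tested genes and 3.5% of all. The log2 fold changes given below ranged from 0.82 to 5.50 in ΔE2 (median 4.19) over the 17 genes with a CHR and from 0.28 to 4.31 (median 2.24) over the 14 without, so the ranges overlapped. Among the genes without it are MIS12 and CENPT, which changed little, and CENPU and SPC24, which rose strongly. CENPC and ZW10 hold the CHR and rose less. CENPI, which rose strongly, had none of the 3 motifs, but the start its window is built on lies 2876 bases downstream of the start of the transcript that was measured. The window start lay within 250 bases of the measured transcript's start for 26 of the 31 genes. It lay farther off for CENPN (716 bases), CENPW (326) and CENPO (310), which are counted among the genes with a CHR. Where a gene had several windows, a motif in any of them counted, while the distances are those of the nearest window. A motif may thus come from another promoter than that of the measured transcript, as can be the case for CCAAT in CENPP. A match of letters does not show that a factor binds there.

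The values are FPKM, which corrects a transcript's reads for the length of its exons and for library depth, so that levels of different genes can be compared per length. The reads behind them could be recovered from the values. Counted in megareads (Mreads), the libraries held 12.1 and 12.7 in the control, 13.6 to 19.1 in ΔE2 and 14.8 to 16.1 in ΔSE12313-b. The test took the 13790 genes that reached 0.5 FPKM in 2 or more libraries, with limma on log2(FPKM + 0.1), the 3 groups in one model and Benjamini-Hochberg adjustment over all of them. A gene was called when its adjusted p was under 0.05 and its change at least 2-fold. The replicates are clones or cultures of 1 cell line, and the p values measure the spread between them. The deletions remove no gene whose level could check the labels. ADAMTS18, the nearby gene that the study links to the super-enhancer, had 0.682 and 0.859 FPKM in the control and between 0.087 and 0.232 in the 6 clones. Of 8 endothelial marker genes 7 were tested, and their summed level was 291 to 292 FPKM in the control, 300 to 466 in ΔE2, and 312 to 421 FPKM in ΔSE12313-b. KDR, the marker that was not tested, did not exceed 0.292 FPKM in any library. VWF was called lower in both deletions, PECAM1 higher in both and ESAM higher in ΔE2 alone. Of 7 lung epithelial markers only the keratins KRT8 and KRT18 were tested, both called higher in both deletions, and the rest did not exceed 0.554 FPKM, with CDH1 and NKX2-1 at 0. Their summed level was 232 to 239 FPKM in the control, 613 to 752 in ΔE2, and 541 to 669 FPKM in ΔSE12313-b. The part of this shift in the results below was not tested. Fibroblast markers did not sum to more than 0.299 FPKM, and leukocyte markers stayed under 1 FPKM except LYZ, which reached 2.67 in ΔE2.

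All 37 genes were measured at higher mean levels in both deletions than in the control. In ΔE2, 33 of the 37 were called higher and 0 lower. Of all tested genes 11.2% were called higher and 8.36% lower. In ΔSE12313-b, 33 of the 37 were again called higher and 0 lower, where 14.7% of all tested genes were called higher and 7.83% lower. The calls were shared for 32 genes, ZW10 was called in ΔE2 alone, NSL1 in ΔSE12313-b alone, and CENPC, CENPT and MIS12 in neither. An adjusted p under 0.05 without regard to size was reached by all 37 in ΔE2 and by 35 in ΔSE12313-b, all but CENPT and MIS12, where 34.7% and 43% of all tested genes were higher at that threshold. CENPT and MIS12 did not keep it in ΔE2 under 13 and 9 of the 21 other settings. The median log2 fold change of the 37 was 2.85 in ΔE2 and 2.83 in ΔSE12313-b, against 0.14 and 0.27 over all tested genes. When each library was centred on its median log2 ratio to the mean library, which removes that shift, the medians of the 37 were 2.69 and 2.54 with 32 and 31 called higher, whereas the calls over all genes turned from 1544 higher and 1153 lower to 1170 and 1464 in ΔE2, and from 2032 and 1080 to 1201 and 1570 in ΔSE12313-b. Because the libraries are from bulk RNA, a different share of cells that express these genes and a different amount of RNA per cell cannot be told apart.

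The scale of the difference shows in the place of these genes among all others. Ranked by level among the 13790 tested genes, the median gene of the 37 stood at the 15.3rd and 17.0th percentile in the control libraries, between 67.2 and 72.2 in ΔE2, and between 57.9 and 67.1 in the ΔSE12313-b clones. The summed level of the 37 was 90.01 and 89.51 FPKM in the control, 535 to 652 in ΔE2 and 534 to 619 in ΔSE12313-b. In each control library 14 of the genes were under 1 FPKM, and in the clones 0 were. Mean levels ran from 0.09 (SPC25) to 11.2 FPKM (PMF1) in the control. In ΔE2 they ran from 1.78 (CENPP) to 46.1 (ZWINT), and in the other deletion from 2.32 (CENPP) to 57.4 FPKM (ZWINT). CENPA, CENPP, SPC25 and SGO1 were under 0.5 FPKM in both controls, so these 4 entered the test through the clones.

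**Figure D1:**
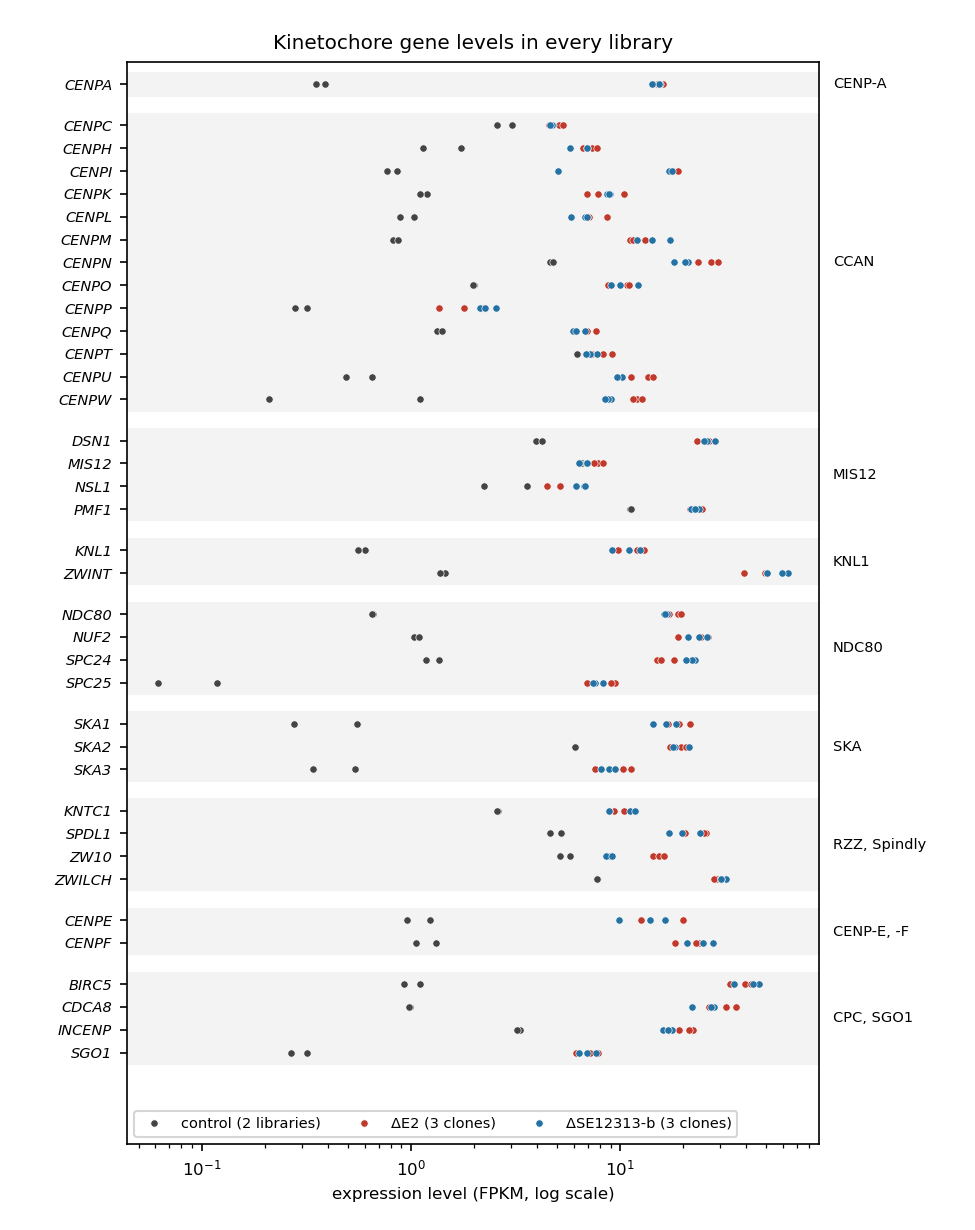
Expression level (FPKM, log scale) of each of the 37 genes in every library, grouped by complex, with 1 point per library for the control (black), ΔE2 (red) and ΔSE12313-b (blue). Control and ΔSE12313-b libraries overlap for CENPT and MIS12, and for the other genes both control points lie below all 6 clones. The share of all tested genes with such a gap was not counted, so the gap is not read as a trait of these genes.

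At the base of the structure, CENPA (2p23.3, chr2:27008882-27017455) was at 0.388 and 0.35 FPKM in the control, from 7 and 6 reads. It was at 15.1, 14.3 and 16.1 FPKM in the ΔE2 clones and at 15.5, 15.3 and 14.1 in the ΔSE12313-b clones. The 6 clones lay close together, and far above the control, with a ratio of means of 41.0 in ΔE2 and 40.6 in ΔSE12313-b. The log2 fold change was 5.02 ± 0.09 (SE) in ΔE2 (adjusted p = 8.95e-08, limma) and 5.01 ± 0.09 in ΔSE12313-b (adjusted p = 8.46e-08, limma). Few reads stand behind the control value, and the exact 95% interval of the read ratio, which covers counting error only, was 23.8 to 76.9 in ΔE2.

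The CCAN links CENP-A chromatin to the outer kinetochore, and 11 of its 13 genes were called higher in each deletion. CENPU, a subunit of the branch that also holds CENP-O, CENP-P and CENP-Q, had the highest mean change over both deletions on this scale, close to CENPW and CENPI and passed by CENPW with a pseudocount of 0.01 and by CENPI without ΔSE12313-b clone 2. It was at 0.652 and 0.49 FPKM in the control, at 13.6, 11.3 and 14.3 in ΔE2 and at 10.2, 10.2 and 9.68 in ΔSE12313-b, log2 fold changes of 4.30 ± 0.14 and 3.93 ± 0.14. The other 3 of that branch moved less, with 2.29 and 2.32 for CENPO, 2.22 and 2.60 for CENPP, and 2.25 and 2.13 for CENPQ in ΔE2 and ΔSE12313-b. CENPH, CENPI, CENPK and CENPM form another branch, and their log2 fold changes were 2.27, 4.31, 2.74 and 3.67 in ΔE2 and 2.13, 3.68, 2.83 and 3.94 in ΔSE12313-b. CENPL and CENPN, whose products pair with each other and of which CENP-N reads the CENP-A nucleosome, had 2.85 and 2.48 in ΔE2 and 2.64 and 2.06 in ΔSE12313-b.

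CENPW, also described after its values had been looked at, was the CCAN gene with the widest control spread. Its histone-fold product pairs with CENP-T, which is described next to it. CENPW was at 0.209 FPKM (3 reads) in 1 control library and 1.10 (15 reads) in the other, at 12.1, 11.5 and 12.7 in ΔE2 and at 9.02, 8.72 and 8.47 in ΔSE12313-b, with log2 fold changes of 4.32 ± 0.46 and 3.86 ± 0.46. CENPT was at 6.87 and 6.20 FPKM in the control, at 7.33, 8.26 and 9.18 in ΔE2 and at 7.75, 7.17 and 6.84 in ΔSE12313-b. Its log2 change was 0.33 ± 0.12 in ΔE2 (adjusted p = 0.0425, limma) and 0.15 ± 0.12 in ΔSE12313-b (adjusted p = 0.30, limma), the latter turning to -0.14 with centred libraries. Over the other settings the adjusted p of CENPT in ΔE2 ranged from 0.0217 to 0.302 (limma), at 0.213 with centred libraries, and it exceeded 0.05 without either control, without ΔE2 clone 2 or 3 and without ΔSE12313-b clone 1 or 2. CENPT was the gene of the network at the highest control level, and its ΔSE12313-b and control libraries overlapped.

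CENPC, which connects CENP-A nucleosomes to the MIS12 complex, was also not called. It stood at 2.58 and 3.04 FPKM in the control, at 4.59, 5.11 and 5.34 in ΔE2 and at 4.78, 4.75 and 4.60 in ΔSE12313-b. The groups did not overlap, and the log2 fold changes of 0.82 ± 0.11 (adjusted p = 0.000594, limma) and 0.73 ± 0.11 (adjusted p = 0.000855, limma) passed the test but not the 2-fold limit.

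The MIS12 complex, the link between the CCAN and the microtubule binders, was the complex that changed least, with 2 of 4 genes called higher in ΔE2 and 3 of 4 in ΔSE12313-b. DSN1 was at 3.96 and 4.24 FPKM in the control, at 26.6, 23.3 and 28.5 in ΔE2 and at 28.4, 26.0 and 25.1 in ΔSE12313-b, log2 fold changes of 2.64 ± 0.10 and 2.66 ± 0.10. MIS12 itself was at 6.36 and 6.57 FPKM in the control, 7.86, 7.48 and 8.28 in ΔE2 and 6.89, 6.35 and 6.94 in ΔSE12313-b. Its log2 change was 0.28 ± 0.09 in ΔE2 (adjusted p = 0.0269, limma) and 0.06 ± 0.09 in ΔSE12313-b (adjusted p = 0.606, limma), and the latter was -0.23 with centred libraries. Over the other settings the adjusted p of MIS12 in ΔE2 ranged from 0.0233 to 0.392 (limma), at 0.251 with centred libraries, and it exceeded 0.05 without either control and without ΔE2 clone 1 or 3.

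NSL1 and PMF1, the remaining subunits, lay near the 2-fold limit. NSL1 was at 3.601 and 2.24 FPKM in the control, at 4.48, 5.15 and 5.16 in ΔE2 and at 6.69, 6.82 and 6.16 in ΔSE12313-b. Its log2 fold change was 0.77 ± 0.18 in ΔE2 (adjusted p = 0.00867, limma), under the 2-fold limit, and 1.18 ± 0.18 in ΔSE12313-b. The 2 controls of NSL1 differ by more than the clones of either deletion, and without the control library at 3.601 FPKM the change in ΔE2 was 1.10 and called, while without the control at 2.24 FPKM the change in ΔSE12313-b was 0.85 and not called. PMF1, the gene of the 37 with the highest control level, had log2 fold changes of 1.03 ± 0.08 and 1.01 ± 0.08. It came out under 2-fold in both with centred libraries, at 0.87 and 0.72. Its change in ΔE2 was 0.97 without ΔE2 clone 3, and in ΔSE12313-b it was 0.9996 without control 1 and 0.98 without ΔSE12313-b clone 2, so that its calls rest on single libraries.

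KNL1 is the scaffold on which the checkpoint kinase Bub1 is recruited, and ZWINT binds it and helps to bring in the RZZ complex. KNL1 was at 0.603 and 0.558 FPKM in the control, at 12.1, 9.72 and 13.0 in ΔE2 and at 11.0, 12.5 and 9.13 in ΔSE12313-b, with log2 fold changes of 4.09 ± 0.17 and 4.00 ± 0.17. ZWINT was at 1.46 and 1.37 FPKM in the control, at 49.2, 38.9 and 50.4 in ΔE2 and at 63.0, 59.1 and 50.1 in ΔSE12313-b. It was the gene with the highest level of the 37 in each of the 6 clones, with log2 fold changes of 4.92 ± 0.14 and 5.24 ± 0.14.

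The NDC80 complex is a rod of 4 proteins, with NDC80 and NUF2 at the microtubule end and SPC24 and SPC25 at the centromere end, and all 4 genes were called higher in both deletions. SPC25 was hardly detected in the control, at 0.118 and 0.062 FPKM from 2 reads and 1 read. It was at 9.40, 6.95 and 9.06 FPKM in ΔE2 and at 7.58, 8.23 and 7.39 in ΔSE12313-b. Counted in reads and scaled to the libraries, this was 93.4 times the control in ΔE2 (exact 95% counting interval 31.8 to 454) and 85.2 times in ΔSE12313-b (29.0 to 415), which rests on the fewest control reads of the 37 genes. SPC24 was at 1.18 and 1.36 FPKM in the control, at 18.1, 14.96 and 15.7 in ΔE2 and at 22.9, 22.0 and 20.6 in ΔSE12313-b, log2 fold changes of 3.57 ± 0.11 and 4.00 ± 0.11. NDC80 rose by 4.62 ± 0.08 and 4.45 ± 0.08 and NUF2 by 4.31 ± 0.15 and 4.34 ± 0.15 on the log2 scale.

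The levels of the subunits of the rod came closer to each other. Mean FPKM of the highest subunit was 14.1 times that of the lowest in the control (SPC24 over SPC25, which rests on 3 reads), 2.73 times in ΔE2 and 3.04 times in ΔSE12313-b (NUF2 over SPC25 in each). The same ratio fell from 14.7 to 1.98 and 2.17 in the SKA complex, while it was 3.83, 5.29 and 4.04 in the MIS12 complex and 3.0, 3.10 and 3.47 among the RZZ genes and SPDL1. It widened from 2.44 to 3.98 and 5.28 between ZWINT and KNL1 and from 1.08 to 1.24 and 1.82 between CENPF and CENPE. These ratios are of mRNA per length and say nothing of the proteins.

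The SKA complex follows microtubule ends together with NDC80. SKA1 was at 0.275 and 0.55 FPKM in the control, at 19.2, 17.0 and 21.6 in ΔE2 and at 18.6, 16.6 and 14.4 in ΔSE12313-b, log2 fold changes of 5.29 ± 0.23 and 5.07 ± 0.23. SKA3 rose by 4.19 ± 0.21 and 4.06 ± 0.21. SKA2 began at 6.08 and 6.06 FPKM, far above its partners, and reached 19.5, 17.3 and 20.6 in ΔE2 and 21.3, 18.2 and 18.0 in ΔSE12313-b, log2 fold changes of 1.63 ± 0.11 and 1.64 ± 0.11. All 3 genes were called in both deletions.

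Of the RZZ genes (ZWILCH, KNTC1, which encodes ROD, and ZW10) and SPDL1, which encodes the dynein adaptor Spindly, 4 of 4 were called higher in ΔE2 and 3 of 4 in ΔSE12313-b. SPDL1 was at 5.20 and 4.64 FPKM in the control, at 25.8, 20.4 and 25.04 in ΔE2 and at 24.0, 19.8 and 17.0 in ΔSE12313-b, log2 fold changes of 2.24 ± 0.16 and 2.01 ± 0.16. ZWILCH rose by 1.91 ± 0.07 and 1.97 ± 0.07 and KNTC1 by 1.84 ± 0.13 and 1.98 ± 0.13. ZW10, which also serves membrane traffic between the endoplasmic reticulum and the Golgi outside mitosis, was at 5.75 and 5.18 FPKM in the control, at 14.4, 15.4 and 16.1 in ΔE2 and at 8.95, 8.57 and 9.11 in ΔSE12313-b. The 3 groups were apart from each other, with log2 fold changes of 1.47 ± 0.09 in ΔE2 and 0.69 ± 0.09 in ΔSE12313-b (adjusted p = 0.000311, limma), the latter under 2-fold.

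CENP-E and CENP-F are large coiled-coil proteins of the outermost layer. CENPF was at 1.06 and 1.32 FPKM in the control, at 23.8, 18.3 and 23.0 in ΔE2 and at 24.9, 27.6 and 20.7 in ΔSE12313-b, with log2 fold changes of 4.08 ± 0.16 and 4.25 ± 0.16. CENPE was at 1.24 and 0.96 FPKM in the control, at 19.95, 12.5 and 20.01 in ΔE2 and at 13.9, 16.4 and 9.82 in ΔSE12313-b, log2 fold changes of 3.85 ± 0.27 and 3.47 ± 0.27. Both had at least 95 reads in each control library, as their transcripts are long. CENPE was also the gene that varied most between the ΔE2 clones, with an SD of 0.39 on the log2 scale.

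The chromosomal passenger complex joins the kinase Aurora B to survivin (BIRC5), borealin (CDCA8) and the scaffold INCENP, and shugoshin (SGO1) protects the cohesion of sister centromeres. All 4 of these genes were called higher in both deletions. BIRC5 was at 0.93 and 1.11 FPKM in the control, at 39.5, 33.5 and 42.3 in ΔE2 and at 46.0, 43.2 and 35.0 in ΔSE12313-b, log2 fold changes of 5.10 ± 0.15 and 5.21 ± 0.15. CDCA8 and SGO1 rose by 4.85 ± 0.15 and 4.18 ± 0.14 in ΔE2 and by 4.57 ± 0.15 and 4.18 ± 0.14 in ΔSE12313-b. INCENP changed least, from 3.31 and 3.22 FPKM in the control to 22.3, 19.1 and 21.2 in ΔE2 and 17.7, 16.0 and 16.9 in ΔSE12313-b, log2 fold changes of 2.63 ± 0.09 and 2.33 ± 0.09.

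**Figure D2:**
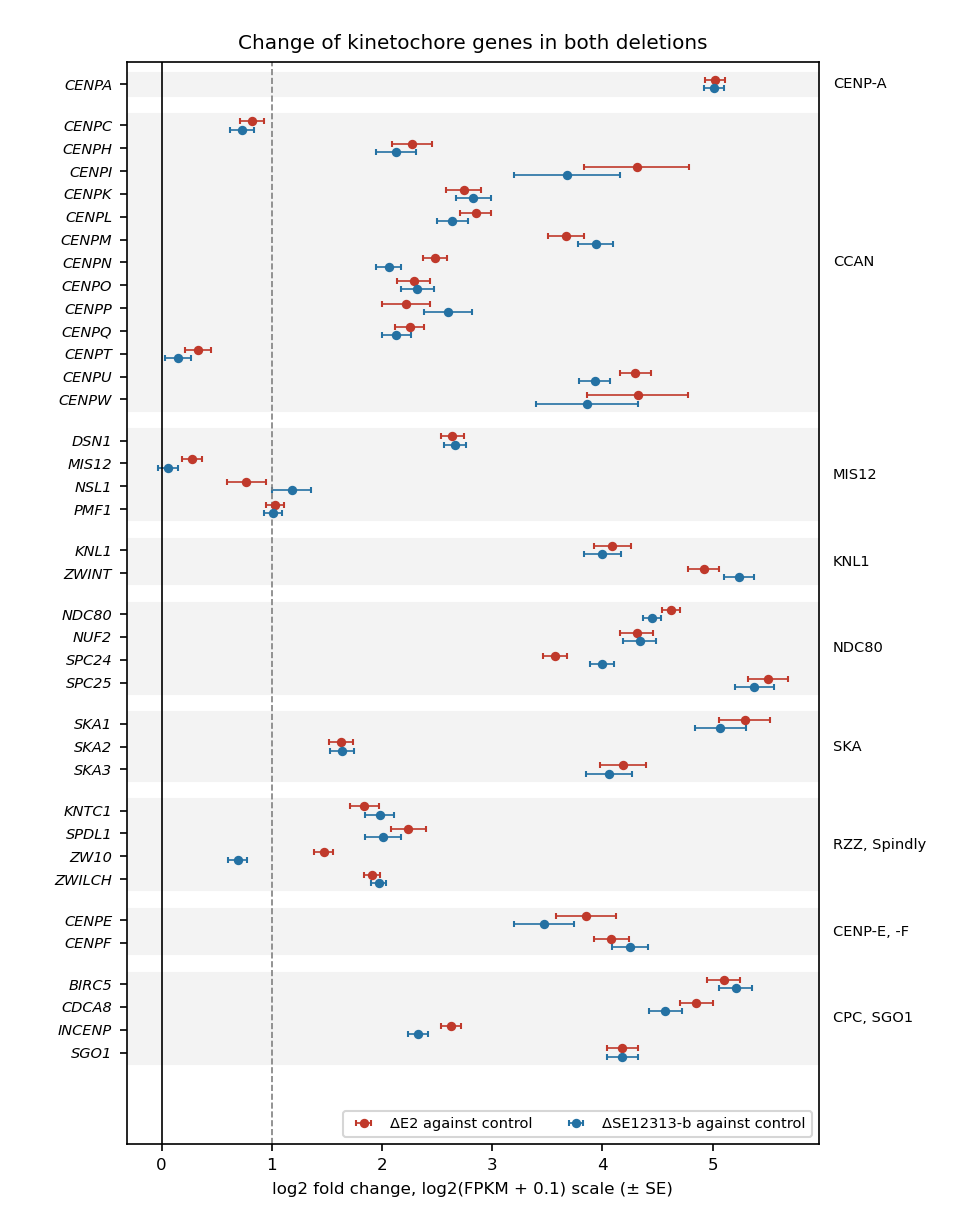
Log2 fold change against the control, on the log2(FPKM + 0.1) scale, with its SE, for ΔE2 (red) and ΔSE12313-b (blue), with the genes grouped by complex. The dashed line marks 2-fold. SPC25, SKA1, BIRC5, CENPA and ZWINT lie farthest to the right. CENPT, MIS12, CENPC, NSL1 and PMF1 lie near or below the dashed line, as does ZW10 in ΔSE12313-b.

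The deletions were also compared with each other, as SE12313-b had been chosen as the inactive enhancer. Of the 37 genes 0 were called higher and 0 lower in ΔE2 than in ΔSE12313-b by limma, where 1.6% and 2.63% of all tested genes were (221 and 362, or 287 and 244 with centred libraries). At an unadjusted p under 0.05 there were 8 of the 37, against 38.8% of all tested genes. Without the 2-fold limit 3 genes were higher in ΔE2 at an adjusted p under 0.05 (6.69% of all tested genes were) and 1 was lower (19.3% of all tested genes were). The median difference of the 37 was 0.09 on the log2 scale, against -0.11 over all tested genes. For 35 of the 37 the 95% interval of the difference lay between -1 and 1. The exceptions were CENPI, with a difference of 0.64 (-0.35 to 1.62), and CENPW, with 0.46 (-0.49 to 1.41).

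**Figure D3:**
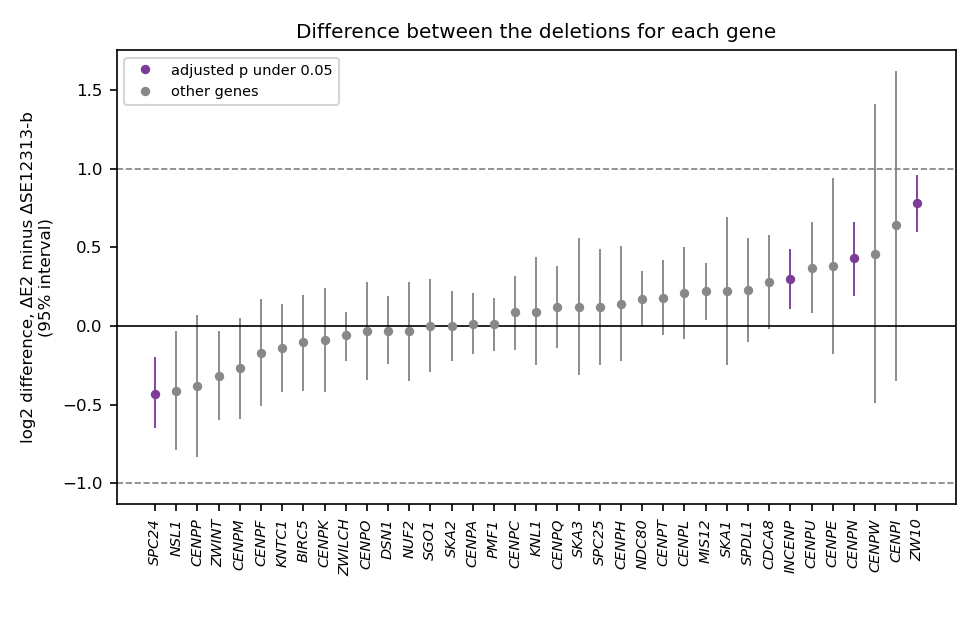
Log2 difference between ΔE2 and ΔSE12313-b for each gene (ΔE2 minus ΔSE12313-b) with its 95% interval from limma, in order of size. Purple marks an adjusted p under 0.05, which SPC24, INCENP, CENPN and ZW10 reached. The dashed lines mark 2-fold, which 0 of the differences pass.

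The 4 genes were ZW10, CENPN, INCENP and SPC24. ZW10, with the values given above, was higher in ΔE2 by 0.78 on the log2 scale (95% interval 0.60 to 0.96, adjusted p = 0.000866, limma). CENPN was at 4.60 and 4.78 FPKM in the control, at 27.3, 23.6 and 29.5 in ΔE2 and at 21.1, 20.5 and 18.0 in ΔSE12313-b. Each ΔE2 clone was above each ΔSE12313-b clone, with a difference of 0.43 (0.19 to 0.66, adjusted p = 0.0186, limma). INCENP was higher in ΔE2 by 0.30 (0.11 to 0.49, adjusted p = 0.0295, limma). SPC24 differed the other way, by -0.43 (-0.65 to -0.20, adjusted p = 0.016, limma), with each ΔSE12313-b clone above each ΔE2 clone. The clones of the deletions were likewise apart for CENPU, CENPW, NDC80, MIS12 and NSL1, which did not reach an adjusted p under 0.05 (limma). ZW10 passed under every setting tried, with adjusted p from 0.000124 to 0.00811 (limma). The others did not. The adjusted p of CENPN ranged from 0.00397 to 0.0612 over the settings (limma), and exceeded 0.05 without ΔE2 clone 1 or 3 and with the replicate block. That of SPC24 ranged from 0.0119 to 0.0794 (limma), and exceeded 0.05 without ΔE2 clone 3, without ΔSE12313-b clone 1 and with centred or quantile-normalized libraries. That of INCENP ranged from 0.00504 to 0.0902 (limma), and exceeded 0.05 without either control, without ΔE2 clone 1 or 3 and without ΔSE12313-b clone 2 or 3, and was 0.0504 with only the 2 groups fitted.

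The genes around these 4 were compared in the same way. Of all 13790 tested genes 4926 were higher in ΔE2 than in ΔSE12313-b, with a median difference of -0.11. The tested genes within 5 Mb of ZW10 (11q23.2) numbered 45, of which 40 were higher in ΔE2 than in ΔSE12313-b, with a median difference of 0.35. Around CENPN (16q23.2) 29 of 37 neighbours were higher in ΔE2, with a median of 0.23. Both deleted enhancers lie within the same 5 Mb of CENPN, on the same chromosome arm. Around INCENP (11q12.3) 158 of 213 neighbours were higher, with a median of 0.17. Around SPC24 (19p13.2) 90 of 189 were, with a median of -0.03. The part of the neighbourhood in these differences was not tested.

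CENPI (Xq22.1, chrX:100353171-100418662) is described because of its values, as it had the widest spread of the 37 genes between ΔSE12313-b clones. It was at 0.765 and 0.859 FPKM in the control, at 17.8, 17.3 and 19.0 in ΔE2, and at 17.2, 5.07 and 17.6 in ΔSE12313-b. Clone 2 of ΔSE12313-b was 1.76 below the mean of the other two on the log2 scale, and 126 of 13790 tested genes (0.914%) were as low there or lower. Even so, the clone was above both controls. Without it the log2 fold change of CENPI in ΔSE12313-b was 4.26 in place of 3.68 ± 0.48. The genes around CENPI moved with it. The 46 tested genes within 5 Mb had a median of -1.09 in the same clone against the other two, and 44 of them were below 0. From 5 to 20 Mb and from 20 to 40 Mb towards the centromere the median was -0.90 in each stretch, over 8 and 56 genes. From 5 to 10 Mb on the other side it was -0.17 over 15 genes, from 10 to 25 Mb -0.54 over 31 genes and farther out -0.06 over 144 genes, and beyond 40 Mb towards the short arm -0.02 over 187 genes. XIST, a tested gene of the same chromosome, was left out of these stretches. The part of these neighbours in the value of CENPI was not tested.

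**Figure D4:**
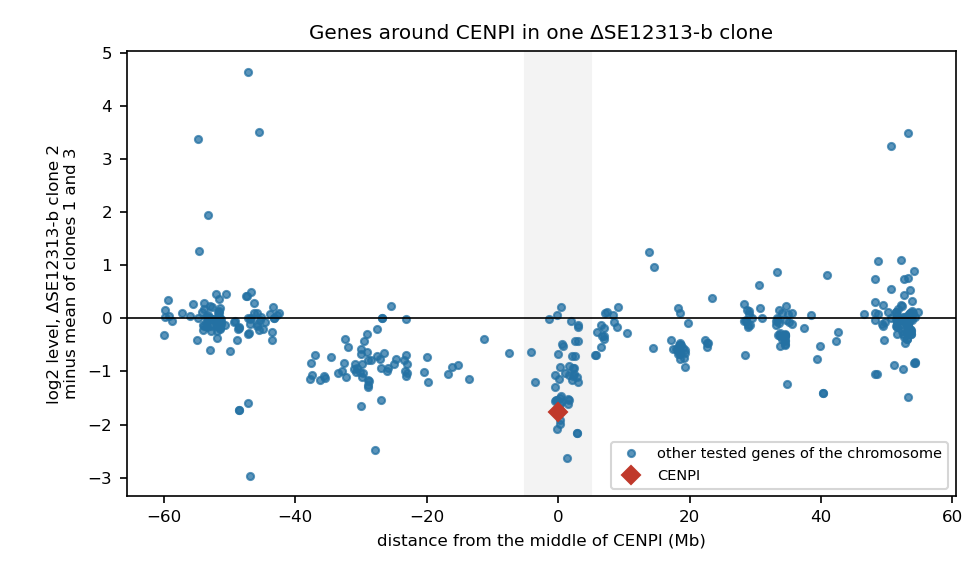
Log2 level in ΔSE12313-b clone 2 minus the mean of clones 1 and 3 for tested genes within 60 Mb of CENPI (red diamond), by distance from the middle of CENPI. XIST was left out of the figure and its counts. The grey band marks 5 Mb to either side, where 44 of 46 neighbours lie below 0, and of the 56 genes between 20 and 40 Mb to the left 53 do.

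Within each deletion the clones kept an order over most of these genes. ΔE2 clone 2 was the lowest of the 3 ΔE2 clones in 32 of the 37 genes, where it was lowest in 38.8% of all tested genes, and clone 3 was the highest in 30, where it was highest in 40.8% of all. Its median distance from the group mean was 0.11 on the log2 scale and that of clone 2 was -0.14. In ΔSE12313-b clone 3 was the lowest in 27 of the 37 (39.6% of all tested genes), with a median of -0.08. The median SD between clones of a deletion was 0.16 in ΔE2 and 0.12 in ΔSE12313-b over the 37 genes, and 0.15 in both over all tested genes, where 28 of the 37 had a log2 change above 2 against the control in each deletion (4.03% and 4.08% of all tested genes did). Leaving out ΔE2 clone 2 or any other library left between 32 and 34 of the 37 called higher in ΔE2 and 32 or 33 in ΔSE12313-b.

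Where several RefSeq transcripts of a gene are listed, their values may share reads. Their changes ranged from 4.03 to 4.27 over 15 transcripts of SGO1 in ΔE2, and more widely, from 3.10 to 4.12, over 7 of CENPM. The 5 transcripts of MIS12 lay between -0.11 and 0.08 in ΔSE12313-b. Exons of 9 of the 37 genes overlap exons of another annotated gene. The library kit marks strand, but how strand was used in counting is not given in the sources used here, so values of these genes may hold reads of their partners. The overlap was largest for CENPP, with 50.1% of its exonic bases shared with IPPK on the opposite strand, followed by CENPO, with 27.0% shared with ADCY3 on the opposite strand, and PMF1, with 23.3% shared with the readthrough gene PMF1-BGLAP on the same strand.

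The wider pathway was described with a pair of lists. Of 15 other centromere factors (chaperones and loaders of CENP-A, CENP-B, CENP-V, further CCAN subunits and histone chaperones), 6 were called higher in ΔE2 and 9 in ΔSE12313-b, with 0 lower in either. By the mean of both deletions, the largest changes were those of OIP5 (4.73 ± 0.24 in ΔE2 and 4.77 ± 0.24 in the other deletion), a subunit of the MIS18 complex that licenses centromeres for new CENP-A, of HJURP (4.18 ± 0.16 and 3.86 ± 0.16), the chaperone that deposits it, and of CENPX (1.72 ± 0.24 and 1.97 ± 0.24), a histone-fold partner of CENP-S. OIP5 was at 0.064 and 0.202 FPKM in the control, from 1 read and 3 reads, and so entered the test through the clones. CENPS, SSRP1, SUPT16H, RBBP4, CENPV and RSF1 were called in neither deletion, and CENPB, NASP and RBBP7 in ΔSE12313-b alone. CENPV had -0.40 ± 0.25 and 0.27 ± 0.25, and RSF1 had -0.01 ± 0.08 and -0.30 ± 0.08.

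Of 24 checkpoint and kinetochore regulators, 12 were called higher in ΔE2, 16 were in ΔSE12313-b, and 0 were lower in either. By the same mean the largest changes were those of ERCC6L, AURKB and KIF2C. ERCC6L, the helicase that resolves DNA threads between sister centromeres, had log2 fold changes of 5.45 ± 0.30 and 4.95 ± 0.30, AURKB, the kinase of the passenger complex, 4.88 ± 0.13 and 4.78 ± 0.13, and KIF2C, a kinesin that takes microtubules apart, 4.45 ± 0.14 and 4.43 ± 0.14. ERCC6L, at 0.093 and 0.195 FPKM in the control from 5 and 10 reads, likewise entered the test through the clones. The genes called in neither were MAD2L1BP, SEH1L, CLASP1, CLASP2, BOD1, PPP2R5A, TPR and CLIP1, with log2 changes from -0.55 (PPP2R5A in ΔE2) to 0.71 (MAD2L1BP in ΔSE12313-b). MAD1L1, NUP107, CKAP5 and MAPRE1 were called in ΔSE12313-b alone. TPR, SEH1L and NUP107 are also nuclear pore proteins, and CLASP1, CLASP2, CLIP1, CKAP5 and MAPRE1 also act on microtubules outside mitosis. Between the deletions 0 of the 15 and 0 of the 24 were called by limma, and 6 and 8 had an unadjusted p under 0.05, where 38.8% of all tested genes did. At an adjusted p under 0.05 without the 2-fold limit, 1 of the 15 was higher in ΔE2 and 2 were lower. Of the 24, 2 were higher and 3 lower, against 6.69% and 19.3% of all tested genes. The largest of these differences was that of MAD2L1, 0.74 (adjusted p = 0.00811, limma). Read against all tested genes, of which 11.2% and 14.7% were called higher, both lists were described by these counts only, with medians of 0.94 and 1.03 for the centromere factors and 1.03 and 1.35 for the regulators.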

How the data were processed

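Libraries of rRNA-depleted RNA came from EA.hy926 control cells and deletion clones. The authors trimmed reads with Trim Galore 0.4.4 and mapped them to GRCh37 with STAR 2.5.4b (submitters' processing notes), and deposited 1 table of FPKM for 65572 RefSeq transcripts. For their own calls the authors counted reads with featureCounts against a GENCODE annotation, and those counts were not used here. As the FPKM table lists RefSeq transcripts, the tool, RefSeq release and use of strand behind it are not given in the sources used here.

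Each gene is represented by its transcript of highest mean FPKM. Reads were recovered from FPKM, length and the step of each library (100% of values whole within 0.1 read). Genes that reached 0.5 FPKM in 2 or more libraries entered limma 3.58.1 in R 4.3.3 (lmFit, empirical Bayes with trend, two-sided) on log2(FPKM + 0.1), with Benjamini-Hochberg adjustment over 13790 genes. Fold changes of low genes are understated on this scale. The fit was first tested on simulated data. Intervals of read ratios are exact and cover counting error only, since reads are not independent molecules.

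The genes and lists were chosen with earlier results of these data known. All 37 genes were reported by complex, with the value in each library for the largest and smallest change of each complex, for CENPA and for genes not called or differing between the deletions. CENPI and CENPW were added after their values were seen. Of the lists, genes not called and the 3 largest changes were named. Size was the mean absolute log2 change of both deletions. Both deletions share the same 2 controls. Promoter windows are from RefSeq and gene models from GENCODE v44 on GRCh37. Alternatives were pseudocounts of 0.01 and 1, other filters on low values, centring, quantile normalization, a replicate block, no trend, pairs of groups, other thresholds, the longest transcript, voom on recovered reads, and each library left out.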

Additional observations from a re-analysis of the deposited data

Results flagged for a closer look

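ZW10, CENPN, INCENP and SPC24 differed between the deletions, by limma's test of the difference itself at an adjusted p under 0.05, which only ZW10 kept under every setting tried. The 3 genes that were higher in ΔE2 stand beside 6.69% of all tested genes, and the 1 that was lower stands beside 19.3%. The log2 difference, ΔE2 minus ΔSE12313-b, was 0.78 for ZW10, 0.43 for CENPN, 0.30 for INCENP and -0.43 for SPC24. The clones of the deletions did not overlap for these genes, nor for CENPU, CENPW, NDC80, MIS12 and NSL1, 9 of the 37 in all. The share of all tested genes without such overlap was not counted. Groups of 2 or 3 libraries are too small to test single libraries as outliers, so the low value of CENPI in ΔSE12313-b clone 2 was not tested in that way.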

How the results depend on the processing

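Over 21 settings the 37 genes gave 1554 fold changes against the control, of which 1522 kept direction and call. The 32 others are of PMF1, NSL1, CENPC, ZW10, CENPT and MIS12. In ΔSE12313-b the change of CENPT turned to -0.14 with centred libraries, -0.13 with quantile normalization and -0.14 with voom, and that of MIS12 to -0.23, -0.23 and -0.23, and to -0.0685 with the longest transcript. The cause was not tested beyond the shift of the median of all genes that these scalings remove. Genes called higher numbered 32 to 35 of 37 in ΔE2 and 31 to 35 in ΔSE12313-b, 32 to 34 and 32 to 33 without any 1 library, and 0 were called lower. Between the deletions 1 gene (ZW10) was called higher at a limit of 1.5-fold. Without a limit on size, 3 genes were higher in ΔE2 and 1 lower. These became 6 and 0 with centred libraries, 7 and 0 with quantile normalization, 1 and 0 at an adjusted p under 0.01, 8 higher with voom, 2 lower when only the groups compared were fitted, and 1 to 4 higher and 0 to 2 lower without any 1 library. Deviations of same-numbered clones correlated by 0.107, -0.08 and -0.073, and those of differently numbered clones by -0.075 to 0.137. Equal replicate numbers thus did not stand out, and whether clones share a batch in another order was not tested. With the replicate block 32 genes were called higher in each deletion and 0 between them, and the adjusted p of CENPN between the deletions was 0.056 (limma). Few control reads limit the low genes, SPC25 most with 3 reads in all, and 2 control libraries limit the spread that can be seen.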
